A study of Mus musculus with 6 samples.

Results

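Prostaglandin genes of MIN6 cells were followed here: 10 genes of the 22298 in the table of expression, each taken by its symbol. They encode a phospholipase (Pla2g4a), both cyclooxygenases (Ptgs1 and Ptgs2), the prostaglandin E synthases (Ptges, Ptges2 and Ptges3), a dehydrogenase that breaks prostaglandins down (Hpgd) and 3 receptors for prostaglandin E2 (Ptger1, Ptger3 and Ptger4). The genes were chosen by their values in this same contrast, with its results known, so what follows for them is a description and the adjusted p-values printed for them are no independent support. MIN6 is a beta-cell line grown from an insulinoma of a mouse carrying a viral T antigen under the insulin promoter. Controls and chronic epinephrine had 3 RNA-seq samples each, and the study describes the exposure as 100 nM over 3 days, with withdrawal for another 2 days. The day of RNA collection was not given in the sources used here, so the libraries may come from before or after withdrawal. The study's methods describe n as independent samples, and the labels do not say whether these were separate cultures. The p-values measure the spread between these samples.

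Prostaglandin synthesis starts when a phospholipase frees arachidonic acid from membrane lipids. Cyclooxygenases turn it into prostaglandin H2, and terminal synthases convert that to prostaglandin E2 or to other prostanoids. Prostaglandin E2 leaves the cell and acts on EP receptors: EP1 raises calcium, EP3 lowers cyclic AMP through inhibitory G proteins, and EP2 and EP4 raise it through the stimulatory G protein. In beta cells EP3 is known for holding back insulin secretion, and Ptgs2 is the cyclooxygenase that inflammatory signals and stress induce.

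Total expected counts were 15017065 to 18127171 per sample, and 3 counts, the limit that a count of 0 allows, stood for 0.165 to 0.200 CPM (counts scaled to a common library total, TMM-normalized). These limits cover counting error only. Control 1 stood apart from the other controls, with a Pearson r across genes of 0.981 with each, against 0.996 between controls 2 and 3. The beta-cell marker list was present in full, with all 14 genes tested. Its summed level was 54011 to 70877 CPM in controls and 64111 to 66160 CPM after epinephrine. Of the 14, 11 were lower after epinephrine, and 2 of them (Ins1 and Slc2a2) were called lower. An unadjusted p under 0.05 was found for 5, and the groups did not overlap for 8. By edgeR's quasi-likelihood test, the Ins1 call held in 1 of 6 fits that left out a sample (adjusted p up to 0.154). The Slc2a2 call held in 3 of 6 (up to 0.0577). Of all 12747 genes tested, 335 were called at an adjusted p under 0.05 (2.63%), 257 of them higher (2.02%) and 78 lower (0.612%). The groups did not overlap for 3484 genes (27.3%).

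Levels of the 10 genes differed widely within the line. On the scale of FPKM, fragments scaled to transcript length and library total, Ptges3 had a mean of 86.0 ± 5.19 (SD, n = 6), in the percentile 96.0 of genes with a value above 0. Ptges3 encodes p23, a co-chaperone of heat shock protein 90 that also has prostaglandin E synthase activity. The other 9 genes had a mean FPKM of 2.51 or less. Ptges2 followed at 2.51 ± 0.276 FPKM, 34.3-fold below Ptges3. Ptger4 was next at 1.18 ± 0.364 FPKM, and Ptger1 stood at 0.377 ± 0.132 FPKM. Each of these 3 steps held in 6 of 6 samples, with no overlap between the ranges of neighbours. From Ptger1 downwards every gene overlapped with the next in the order, which ran Ptges (0.357 FPKM), Ptgs2 (0.327 FPKM), Ptger3 (0.122 FPKM), Ptgs1 (0.0617 FPKM), Hpgd (0.0450 FPKM) and Pla2g4a (0.00833 FPKM). Over the 6 samples, neighbours among these lower ranks do not differ beyond the spread between samples. The place of Ptgs2 differs between the groups: in controls its 0.12 to 0.17 FPKM lay below every Ptger1 and Ptges value, and after epinephrine its 0.46 to 0.62 FPKM lay above every Ptger1 value (0.31 to 0.43 FPKM) and every Ptger3 value (0.08 to 0.16 FPKM). Genes farther apart in the order also separate: the lowest Ptger1 value (0.23 FPKM) and the lowest Ptges value (0.22 FPKM) lay above the highest of Ptger3 (0.16 FPKM), Ptgs1 (0.14 FPKM), Hpgd (0.16 FPKM) and Pla2g4a (0.05 FPKM).

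**Figure D1:**
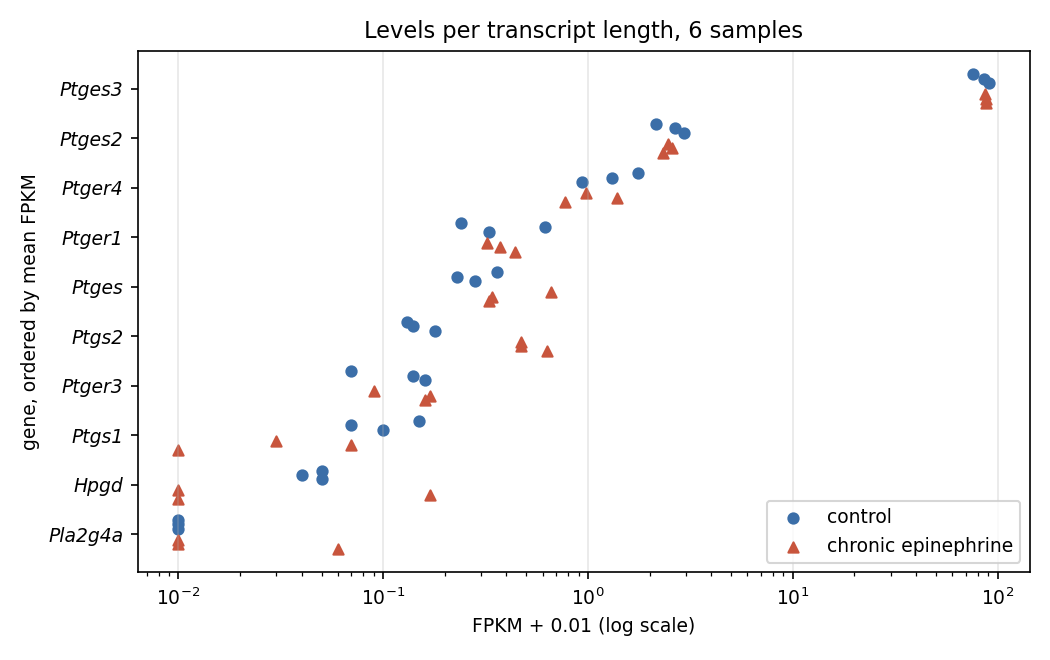
FPKM of each gene in each sample, with 0.01 added and a log axis; circles are the 3 controls and triangles the 3 samples of chronic epinephrine, offset vertically so that they can be told apart. Ptges3 lies near 86.0 FPKM in every sample and the other 9 genes at means of 2.51 FPKM or less.

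Of the 10 genes, 6 passed the filter on low counts and were tested, namely Ptgs2, Ptges, Ptges2, Ptges3, Ptger1 and Ptger4. Ptgs2 alone, 1 of these 6, was called by edgeR's quasi-likelihood test and it was higher, beside 2.02% called higher among all genes tested. By DESeq2 the count was also 1, and no other of the 6 had an unadjusted p under 0.05. Ptgs2 was also the 1 tested gene whose groups did not overlap, beside 27.3% of all genes. As the genes were chosen on this contrast, nothing is read from these shares. Pla2g4a, Ptgs1, Hpgd and Ptger3 did not pass the filter, had at most 8 counts in any sample and are given by their counts.

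**Figure D2:**
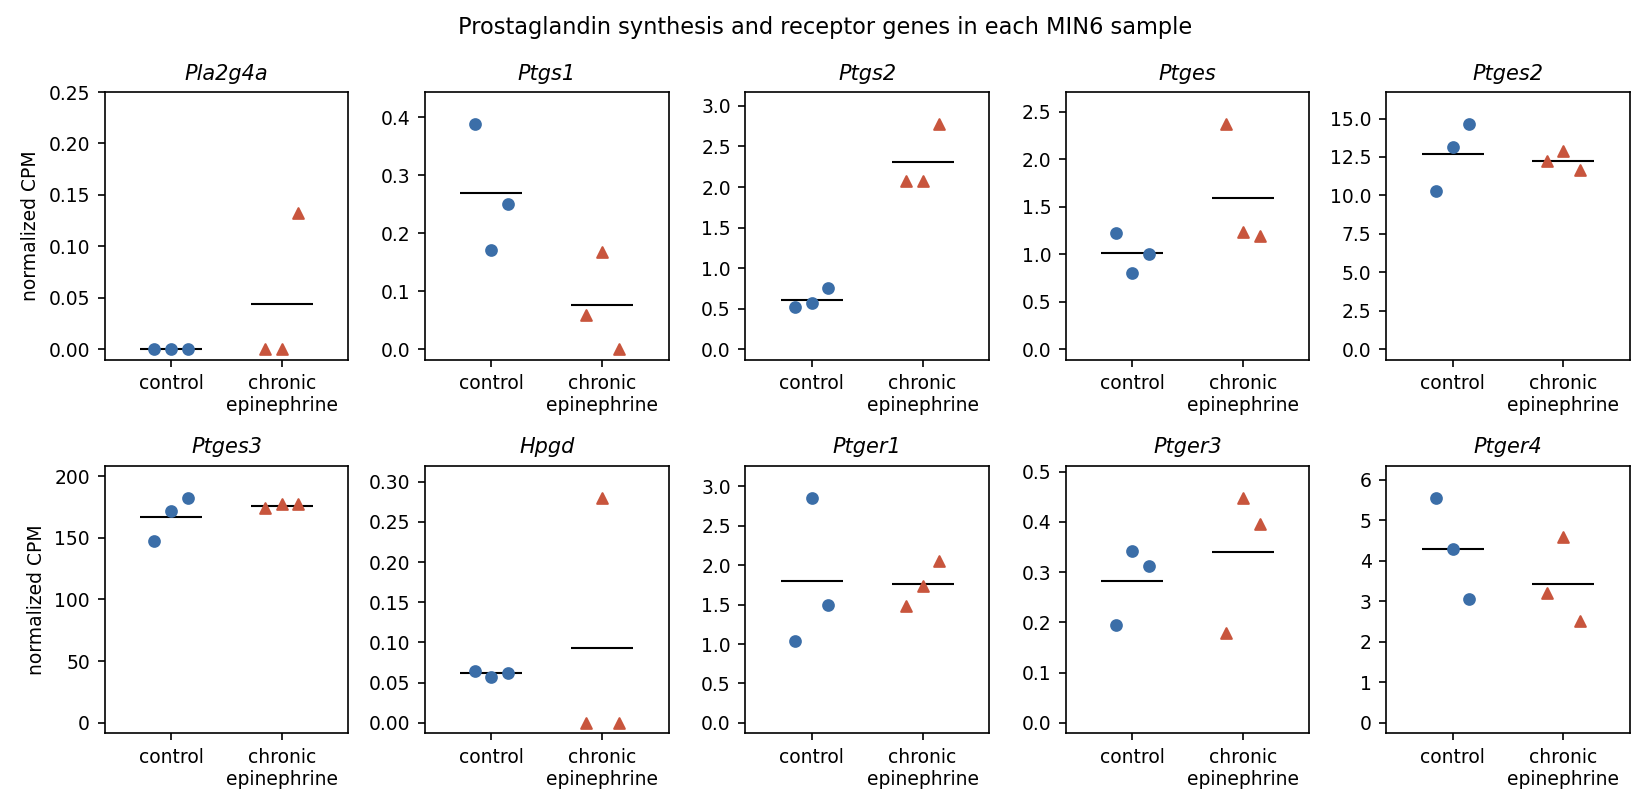
Normalized CPM of each of the 10 genes in the 3 controls (circles) and 3 chronic epinephrine samples (triangles), with a line at each group mean and an axis of its own for each gene. Ptgs2 lies at 0.518 to 0.750 CPM in controls and at 2.07 to 2.77 CPM after epinephrine, while Ptges, Ptges2, Ptges3, Ptger1 and Ptger4 overlap between the groups.

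Ptgs2, the inducible cyclooxygenase, rose after chronic epinephrine exposure and was the largest difference among the 6 genes tested. It had 8, 10 and 12 counts in controls 1 to 3 and 35, 37 and 42 counts in epinephrine samples 1 to 3. In normalized CPM the controls held 0.518, 0.571 and 0.750 and the epinephrine samples 2.07, 2.07 and 2.77. The lowest epinephrine sample was thus above the highest control, and the spread within each group was small beside the step between them. The group means were 0.613 ± 0.122 and 2.31 ± 0.405 CPM (SD, n = 3 each), a 3.71-fold difference with a 95% interval of 2.39 to 5.77. The log2 fold change was 1.89 (SE 0.28), with an adjusted p of 0.0108 by edgeR's quasi-likelihood test and Benjamini-Hochberg adjustment. It ranked 15th by fold among the genes called higher. With 3 samples against 3 no exact permutation p can go under 0.1, and Ptgs2 reached that value (two-sided).

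The Ptgs2 values rest on few reads. Only 1 of 3 controls reached the filter's level of 0.606 CPM, so the gene entered the test through the epinephrine group. Within controls its counts varied no more than counting error gives, with a variance to counting ratio of 0.334, and within epinephrine samples the ratio was 1.15. The call was lost without control 2 (adjusted p = 0.0695) and without epinephrine sample 1 (0.0778), 2 (0.0747) or 3 (0.0786), and it held without control 1 (0.000793) and control 3 (0.0374). Its fold change stayed between 1.75 and 2.06 on the log2 scale in these fits. On log2(FPKM + 1) the difference was 0.41, a scale that compresses genes of low level.

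**Figure D3:**
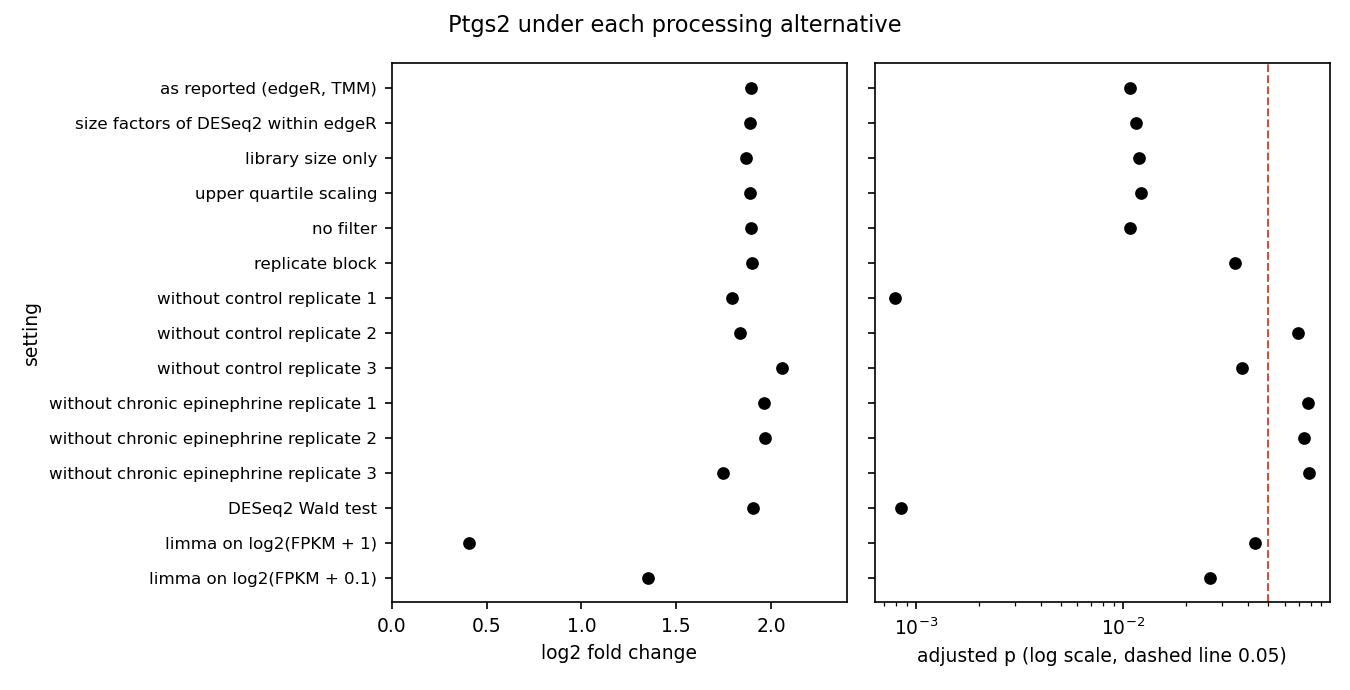
Log2 fold change of Ptgs2 (left) and its adjusted p on a log axis (right) in the reported fit and 14 alternatives, with a dashed line at an adjusted p of 0.05. The 4 points right of the line leave out control 2 or one of the 3 epinephrine samples, and the left-most fold change, 0.41, comes from log2(FPKM + 1).

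Ptgs1, the constitutive cyclooxygenase, had fewer reads than its partner in every sample and lay near the floor. Controls 1 to 3 held 6, 3 and 4 counts and epinephrine samples 1 to 3 held 1, 3 and 0. Summed counts were 13 and 4, an epinephrine to control ratio of 0.297 after depth, with an exact 95% interval of 0.0705 to 0.960 that covers counting error only. Normalized CPM were 0.388, 0.171 and 0.250 in controls and 0.0593, 0.168 and 0 after epinephrine. Control 2 and epinephrine sample 2 had the same 3 counts and differ by depth alone, so the lack of overlap between the groups rests on that step. The exact permutation p was 0.1. Markers of fibroblasts, cells that express Ptgs1, were also highest in control 1 among the controls, for 10 of 10 genes on the list. The mean was lower after epinephrine for 8 of them and higher for 2. Col3a1 stood there at 7.63 CPM, with 0.0571 and 1.69 in the other controls and at most 0.448 after epinephrine. The 2 with a higher mean were Col1a1 and Pdgfra. Col1a1 was at 4.46, 0.514 and 1.06 CPM in controls and at 15.6, 9.58 and 0.198 CPM after epinephrine. Pdgfra was at 0.712, 0.228 and 0.438 CPM in controls and at 0.948, 0.840 and 0.991 CPM after epinephrine. The summed level of the fibroblast list was 1.77 to 24.6 CPM in controls and 1.98 to 19.9 CPM after epinephrine, with 3 of its 10 genes tested, and its part in Ptgs1 was not tested.

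The cyclooxygenase genes lie on different chromosomes. On GRCm38, Ptgs2 spans chr1:150100031-150108227 on the plus strand and Ptgs1 spans chr2:36230426-36252272, also on the plus strand. The 250 bases before each start site, from RefSeq on GRCm38.p6, are shown because Ptgs2 carries the main difference and Ptgs1 is its paralogue. Capitals mark the letters of a motif that was searched.

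Ptgs2, chr1:150099781-150100030, plus strand: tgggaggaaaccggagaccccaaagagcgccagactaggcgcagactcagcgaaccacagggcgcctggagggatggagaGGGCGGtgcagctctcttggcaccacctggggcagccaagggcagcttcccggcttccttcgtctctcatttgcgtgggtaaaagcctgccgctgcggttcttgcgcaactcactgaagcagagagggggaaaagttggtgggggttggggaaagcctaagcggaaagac

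Ptgs1, chr2:36230176-36230425, plus strand: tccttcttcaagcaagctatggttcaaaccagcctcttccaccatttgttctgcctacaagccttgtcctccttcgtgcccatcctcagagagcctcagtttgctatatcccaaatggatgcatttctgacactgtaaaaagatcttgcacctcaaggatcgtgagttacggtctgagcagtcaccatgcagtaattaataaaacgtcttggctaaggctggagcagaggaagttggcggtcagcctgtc

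The cAMP response element was searched on both strands as TGACGTCA and as the shorter TGACG, which lies inside the full element. The same search was made for the C/EBP-ATF element, TGATGCAA. A TATA box was taken as the letters TATAAA on either strand. A GC box was taken as GGGCGG and an E-box as CACGTG, again on either strand. In the Ptgs2 window the only match was a GC box at -170 to -165 from the start site, and the Ptgs1 window held none. GC content was 61.6% for Ptgs2 and 48% for Ptgs1, beside a median of 52.4% over 32851 windows. A GC box stood in 32.7% of those windows, TATAAA in 12.4%, CACGTG in 6.02%, TGACG in 17.8%, TGACGTCA in 1.55% and TGATGCAA in 0.791%. Windows were matched for 9 of the 10 genes (10 windows), and none of these held TGACGTCA, TGACG or TGATGCAA. The Hpgd window ends at 56294551 on chromosome 8, ahead of the annotated gene start at 56294585, and the 50 bases after it did not match an annotated transcript, so its place is less sure than that of the other windows, for which they did. Other matches were GC boxes for Ptges, Ptges3, Ptger3, Ptger4 and, in that window, Hpgd, an E-box for Ptges2 at -77 to -72 and TATAAA for Pla2g4a. The absence of a match says only that these letters are not in the window. No other letters for C/EBP or cAMP response sites were searched, and neither were the 50 bases after the start site.

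Pla2g4a, the cytosolic phospholipase A2 that releases arachidonic acid, was close to undetected. It had 0 counts in 5 of 6 samples and 2 counts in epinephrine sample 3. It lies on the minus strand at chr1:149829618-149961290, and 139 kb separate its end from the start of Ptgs2 with 0 protein-coding genes between them.

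Of 24 other phospholipases in the table, 5 had 0 counts in all samples, and Pla2g4b had the same mean as Pla2g4a (0.00833 FPKM). The other end of the list reached 36.5 FPKM (Pla2g2d). The filter left 12 that were tested, of which 1 was called higher and 1 lower, beside 2.02% called higher and 0.612% called lower among all genes tested. Pla2g12a, a secreted phospholipase A2, had 26.4, 31.4 and 33.5 CPM in controls and 43.9, 43.2 and 46.5 CPM after epinephrine. Its log2 fold change was 0.55 (SE 0.11), with an adjusted p of 0.0356 by edgeR's quasi-likelihood test. Pla2g2d, another secreted phospholipase A2, moved the other way, with 77.0, 71.3 and 73.6 CPM in controls and 49.7, 47.5 and 50.4 CPM after epinephrine. It fell by 0.59 on the log2 scale (SE 0.08, adjusted p = 0.00853). Neither gene overlapped between the groups. The call for Pla2g12a held in 1 of 6 fits that left out a sample (without control 1), with an adjusted p of up to 0.194 in the others, and it was lost with the replicate number as a block (0.0708). The call for Pla2g2d was lost without epinephrine sample 1 (0.0830), 2 (0.0849) or 3 (0.0683). Pnpla8, a mitochondrial and peroxisomal phospholipase, stood at a mean of 34.2 FPKM.

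Among the prostaglandin E synthases no call was made. Ptges, the membrane enzyme that is usually induced together with Ptgs2, had 1.23, 0.800 and 1.00 CPM in controls and 2.37, 1.23 and 1.19 CPM after epinephrine. Epinephrine sample 1 stood above the rest, and the other two lay at the level of control 1. Its log2 fold change was 0.67 (SE 0.35, 95% interval -0.14 to 1.48), with an adjusted p of 0.381 by edgeR's quasi-likelihood test. Without epinephrine sample 1 it was 0.27. The Ptgs2 estimate of 1.89 lies outside this interval, and a 2-fold difference lies inside it. The 95% interval of Ptgs2, 1.26 to 2.53, overlaps that of Ptges, and whether these genes changed differently was not tested.

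Ptges2, a membrane-associated synthase, had 10.3, 13.1 and 14.6 CPM in controls and 12.3, 12.9 and 11.6 CPM after epinephrine. The epinephrine samples fell within the range of the controls, and control 1 was the lowest of all. The log2 fold change was -0.05 (SE 0.14, 95% interval -0.38 to 0.28; adjusted p = 0.891 by edgeR's quasi-likelihood test), and without control 3 it was 0.06.

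Ptges3 had 147, 172 and 182 CPM in controls and 174, 177 and 177 CPM after epinephrine. Control 1 was again the lowest, and the other 5 samples lay close together. The log2 fold change was 0.08 (SE 0.10, 95% interval -0.15 to 0.30; adjusted p = 0.741 by edgeR's quasi-likelihood test), and -0.01 without control 1. Within its annotated transcripts, 19.6% of the 50-base windows also occur in Ptges3-ps or Gm11893, copies with no row in the table, so part of its count could come from them.

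Hpgd, the dehydrogenase that starts the breakdown of prostaglandins, had 1, 1 and 1 counts in controls and 0, 5 and 0 counts after epinephrine. All 5 reads of the epinephrine group came from sample 2. The ratio of summed counts was 1.61, with an exact 95% interval of 0.313 to 10.3, so no difference was detectable at this depth.

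EP receptor genes differed in level more than between the groups. Ptger4, the EP4 receptor, had 5.56, 4.28 and 3.06 CPM in controls and 3.20, 4.59 and 2.51 CPM after epinephrine. The groups overlapped, with the highest value in control 1 and the lowest in epinephrine sample 3. Between the groups the log2 fold change was -0.31 (SE 0.28, 95% interval -0.96 to 0.33; adjusted p = 0.622 by edgeR's quasi-likelihood test). It ranged from -0.59 without epinephrine sample 2 to -0.09 without control 1. Of its exonic bases, 16.5% overlap Ttc33 or Gm15937 on the other strand.

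Ptger1, the EP1 receptor, had 1.04, 2.86 and 1.50 CPM in controls and 1.48, 1.74 and 2.05 CPM after epinephrine. Control 2 was the highest and control 1 the lowest, so the epinephrine samples lay inside the control range. For this gene the log2 fold change was -0.06 (SE 0.37, 95% interval -0.89 to 0.78; adjusted p = 0.954 by edgeR's quasi-likelihood test), and without control 2 it turned to 0.45. The Ptger1 counts are not whole numbers, and how reads were assigned to genes is not given in the sources used here, so its level is uncertain.

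Ptger3, the EP3 receptor, had 3, 6 and 5 counts in controls and 3, 8 and 6 counts after epinephrine. The groups overlapped, with a ratio of summed counts of 1.17 and an exact 95% interval of 0.543 to 2.57. Ptger2, the EP2 receptor, had 2 counts in all, both in control 3. Ptgdr and Ptgir, receptors for prostaglandins D2 and I2, had 0 counts in all samples, which allows at most 3 counts or 0.165 to 0.200 CPM in each. The list of other prostanoid receptors held 7 genes, among them Ptgfrn, which encodes a regulator of the prostaglandin F receptor and no receptor itself. None passed the filter, and the highest, Ptgdr2, Tbxa2r and Ptgfrn, had means of 0.142, 0.0517 and 0.0150 FPKM. Ptger4 and Ptger1 were the prostanoid receptors with the most reads in this line.

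The G proteins that EP receptors use were all tested, 10 of 10, with 1 called lower and 0 higher, beside 0.612% and 2.02% of all genes tested. Gnai1, an inhibitory subunit, had 26.6, 26.3 and 27.3 CPM in controls and 20.1, 20.2 and 19.4 CPM after epinephrine. Samples of each group lay close together, and it fell by 0.43 on the log2 scale (SE 0.09, adjusted p = 0.0421 by edgeR's quasi-likelihood test). That call was lost without a filter (0.0532), with the replicate block (0.130), on both FPKM scales (0.0659 and 0.0610) and without any one sample other than control 1 (up to 0.233). Gnas, the stimulatory subunit, had a mean of 1026 FPKM, Gnai2 130 FPKM and Gnao1 104 FPKM.

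Regulators known to act on cyclooxygenase transcription numbered 10, all tested. Of these, 2 were called higher and 0 lower, beside 2.02% and 0.612% of all genes tested. Log2 fold changes were above 0 for 3 and below 0 for 7. Their median was -0.10, beside -0.0023 over all genes tested. Atf4, a transcription factor of the integrated stress response, had 163, 197 and 208 CPM in controls and 349, 339 and 349 CPM after epinephrine. Its log2 fold change was 0.87 (SE 0.10, adjusted p = 0.00581 by edgeR's quasi-likelihood test). Cebpb, a factor known to bind the Ptgs2 promoter, had 15.1, 13.2 and 14.4 CPM in controls and 26.9, 23.6 and 22.3 CPM after epinephrine. Its log2 fold change was 0.77 (SE 0.11, adjusted p = 0.0108). The groups overlapped for neither gene. The Atf4 call was lost without epinephrine sample 1 (0.0577) or 2 (0.0585), and the Cebpb call without control 2 (0.0609) or epinephrine sample 1 (0.0830), 2 (0.0766) or 3 (0.0507). Fos and Jun had means of 76.3 and 37.4 FPKM and were not called. Of the Cebpb exonic bases, 20.7% overlap Tmem189 on the other strand.

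**Figure D4:**
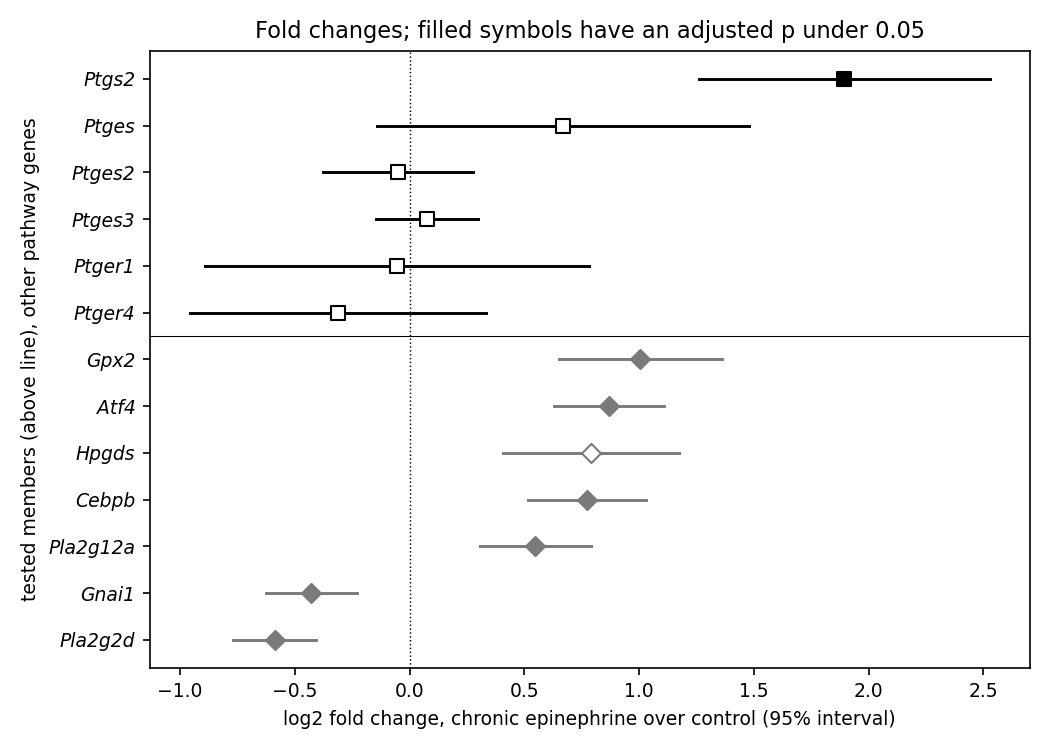
Log2 fold change of epinephrine over control with its 95% interval, for the 6 tested genes of prostaglandin synthesis and reception (squares, above the line) and 7 further pathway genes (diamonds), with filled symbols at an adjusted p under 0.05. Ptgs2 at 1.89 lies farthest from 0, and the intervals of Ptges, Ptges2, Ptges3, Ptger1 and Ptger4 include 0.

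In the lists for other branches of arachidonic acid metabolism edgeR called 0 genes, and the counts by DESeq2 and at an unadjusted p stand beside each list; the exception is Gpx2, from the pathway list of the deposited annotation that comes last. Across the lists other than that last one, with the phospholipases, the cyclooxygenase regulators and the G proteins included, 107 of 110 genes were in the table and 66 were tested, with 3 called higher and 2 lower, beside 2.02% and 0.612% of all genes. These 5 calls were Pla2g12a, Pla2g2d, Atf4, Cebpb and Gnai1, described above. The median log2 fold change over the lists was -0.01, beside -0.0023 over all genes tested. An unadjusted p under 0.05 was found for 17 of the 66, beside 2179 of all 12747. DESeq2 called 7 genes of the lists and 734 genes in all. Of the other prostanoid synthases, 5 of 9 in the table were tested and 0 were called by edgeR, with 1 at an unadjusted p under 0.05 and 1 called by DESeq2. That gene, named after its values were seen, is Hpgds, the hematopoietic prostaglandin D synthase, at 4.15 ± 0.679 CPM in controls and 7.20 ± 0.747 CPM after epinephrine (SD, n = 3 each), a log2 fold change of 0.79 (SE 0.17) with an adjusted p of 0.0509. Akr1b3, Cbr1 and Prxl2b, a reductase of prostaglandin F synthesis and related enzymes, had means of 39.6, 20.2 and 8.67 FPKM.

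For transport and breakdown, 6 of 7 genes were tested and edgeR called 0, with 1 at an unadjusted p under 0.05 and 0 by DESeq2. The highest were Ptgr2 and Zadh2, reductases that inactivate prostaglandins, at means of 21.8 and 15.02 FPKM, and the exporter Abcc4 at 3.59 FPKM. Enzymes that return arachidonic acid to phospholipids were well expressed, with 11 of 12 tested and 0 called by edgeR, 5 at an unadjusted p under 0.05 and 0 by DESeq2. Acsl5, Lpcat3 and Mboat2 led them at means of 36.4, 36.2 and 29.0 FPKM. In the endocannabinoid route 6 of 7 genes were tested and edgeR called 0, with 2 at an unadjusted p under 0.05 and 1 called by DESeq2. Its highest genes, the hydrolases Abhd12, Abhd6 and Faah, had means of 29.0, 13.6 and 11.4 FPKM.

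Of the lipoxygenase and leukotriene genes, 3 of 15 were tested and edgeR called 0, with 1 at an unadjusted p under 0.05 and 0 by DESeq2. Lta4h, Alox5ap and Aloxe3 had means of 21.6, 2.55 and 0.547 FPKM. Of the epoxygenase branch 3 of 6 genes were tested, with 0 called by edgeR or DESeq2 and 0 at an unadjusted p under 0.05. Ephx1, Cyp2j6 and Ephx2 had means of 11.9, 5.48 and 0.338 FPKM. The arachidonic acid metabolism pathway of the deposited annotation, a list added after the table was seen, had 90 genes besides the members, 38 of them also on the lists above. Of the 90, 22 were tested, 13 of which are on those lists, with 2 called higher and 1 lower, beside 2.02% and 0.612% of all genes tested. An unadjusted p under 0.05 was found for 6 of the 22, and DESeq2 called 5 genes of this list. Besides Pla2g12a and Pla2g2d, described above, the call by edgeR was Gpx2, a glutathione peroxidase. It had 8.28, 11.5 and 12.8 CPM in controls and 22.9, 21.0 and 21.7 CPM after epinephrine, a log2 fold change of 1.00 (SE 0.16, adjusted p = 0.0139 by edgeR's quasi-likelihood test). That call was lost without control 2 (0.0594) or epinephrine sample 1 (0.106), 2 (0.0849) or 3 (0.0817). Of the 50-base windows of Gpx2, 5.97% also occur in Gpx2-ps1, which has no row in the table. Gpx1 had the highest level of that list, a mean of 78.3 FPKM.

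Markers of other cells were read beside these results, since in bulk RNA fewer cells of a type and less RNA per cell cannot be told apart. Of 12 leukocyte markers 2 were tested, and their summed level was 1.20 to 3.36 CPM in controls and 3.19 to 4.62 CPM after epinephrine. Within that list Cd68, a lysosomal protein of macrophages, was higher after epinephrine. It had 0.712, 0.343 and 0.563 CPM in controls and 3.38, 2.13 and 2.97 CPM after epinephrine. Its log2 fold change was 2.39, with an adjusted p of 0.00907 by edgeR's quasi-likelihood test. That call was lost in 3 of 6 fits that left out a sample, with an adjusted p of up to 0.0778. Controls 2 and 3 lay below the filter's level of 0.606 CPM, so Cd68, like Ptgs2, entered the test through the epinephrine group. Csf1r, the other marker of this list that was tested, had 1.88, 0.457 and 0.813 CPM in controls. After epinephrine it had 0.593, 0.952 and 0.925 CPM (log2 fold change -0.32, not called). Ptprc, the marker shared by all leukocytes, was at 0.119 CPM or less in every sample and at 0 in epinephrine samples 2 and 3. Tyrobp was at 0 in all 3 epinephrine samples. Glucagon (Gcg) also moved with the groups, with 175, 195 and 211 CPM in controls and 377, 396 and 409 CPM after epinephrine. Albumin (Alb), a liver gene, stood at 33.9 and 82.2 CPM in controls 2 and 3 and at 0.448 CPM or less in the other 4 samples. Apoa1, Ahsg, Fga, Fgb and Hpx were likewise highest in controls 2 and 3. The list of 12 hepatocyte markers, 3 of them tested and 0 called by edgeR (1 at an unadjusted p under 0.05, 5 called by DESeq2), summed to 849 to 1503 CPM in controls and 1570 to 1756 CPM after epinephrine. Most of that sum was Ttr, at 837, 1057 and 1333 CPM in controls and 1621, 1555 and 1742 CPM after epinephrine. Ttr was thus high in every sample (mean 1141 FPKM) and did not share the pattern of Alb. The higher sum after epinephrine therefore describes Ttr and not Alb, Apoa1, Ahsg, Fga, Fgb or Hpx. Endothelial markers summed to 11.8 to 15.2 CPM in controls and 12.1 to 12.6 CPM after epinephrine, and exocrine markers to 1.60 to 2.85 CPM and 1.06 to 2.31 CPM, with Cpa1, Cel and Pnlip at 0 in all samples. Their part in the prostaglandin genes was not tested.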

How the data were processed

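RNA-seq of MIN6 cells covered 3 controls and 3 chronic epinephrine samples, grouped by their labels, with dose and days from the study's methods. The authors deposited a table with an expected count per gene and library, with no scaling between samples and an FPKM value scaled to transcript length and library. The labels give GRCm38 as the build, and the aligner, counter and strand setting are not given in the sources used here. Totals were 15017065 to 18127171, and 8.34% of values were not whole (tolerance 1e-06).

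Counts were rounded, and 12747 genes kept by filterByExpr (a level of 10 counts at the median depth) were scaled by TMM. The groups were compared with edgeR 4.0.16 (R 4.3.3, glmQLFit and glmQLFTest), p-values were adjusted by Benjamini-Hochberg across these genes, and a call needed an adjusted p under 0.05. The procedure was tested on simulated data. CPM are TMM-normalized and values are mean ± SD. Genes below the filter were compared by summed counts, with an exact conditional binomial 95% interval. Single values used exact two-sided permutation tests. Motifs were searched in the 250 bases upstream in RefSeq windows, and overlaps between genes in GENCODE release 21 (22255 of 22298 identifiers matched). Shared sequence was counted in windows of 50 bases.

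Members and lists were chosen with earlier results of these data known. All 10 members are named, and from each list every gene at an adjusted p under 0.05 and the 3 of highest mean FPKM. Named outside that rule are genes overlapping a named gene, Hpgds, Creb1, Nfatc2, Pla2g4b, Ptger2, Ptgdr, Ptgir and the cell type markers with values. Alternatives were DESeq2 size factors, upper quartile scaling, library size only, no filter, at least 10 counts in every sample, the replicate number as a block, each sample left out, the Wald test of DESeq2 1.42.0, and limma 3.58.1 with a trend on log2(FPKM + 1) or log2(FPKM + 0.1). The arachidonic acid pathway list of the deposited annotation was added after the table was seen.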

Additional observations from a re-analysis of the deposited data

How the results depend on the processing

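Over all genes, 335 calls became 178 with the replicate number as a block, 734 with DESeq2 and 47 to 2798 when one sample was left out; the highest count was without control 1 and the lowest without epinephrine sample 1 or 2. The 1 call among the prostaglandin genes, Ptgs2, became 0 with at least 10 counts in every sample, where Ptgs2 was not tested because control 1 had 8 counts, and ranged from 0 to 1 when one sample was left out. The 5 calls over the pathway lists, without that of the deposited annotation, became 3 with the block and 0 to 18 when one sample was left out. Ptger1 changed sign, to 0.0052 with the block, 0.0075 on log2(FPKM + 0.1) and a range of -0.33 to 0.45 when one sample was left out, where Ptges2 ranged from -0.18 to 0.0635 (without control 3) and Ptges3 from -0.0084 (without control 1) to 0.14. None of these had a call to lose, and the cause was not tested. Over the tested prostaglandin genes and the 7 pathway genes with printed tests, 152 values kept direction and side of the threshold, 32 lost a call, 4 gained one (all Hpgds) and 6 changed sign. Replicate numbers did not pair the samples: deviations of samples with the same number correlated at 0.0141, 0.141 and -0.0721, and Ptgs2 kept its call with the block (adjusted p = 0.0345, edgeR's quasi-likelihood test). Depth limits Ptgs1, Ptger3, Hpgd and Pla2g4a, which had at most 8 counts in any sample.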
